A study of Rattus norvegicus with 16 samples.

Results

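The 9 genes described here encode transcription factors that pattern the gut tube: Cdx1, Cdx2, Sox2, Barx1, Gata4, Gata5, Gata6, Hnf4a and Pdx1. They were chosen by name for their known roles in foregut or intestinal identity, by a rule that uses no measured value, although earlier results of these data were known. The array carried 10 probes for them (Sox2 had 2, every other gene 1) among 30367 probes in all, and all 10 probes were kept in a tested set of 21174 probes.

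The tissues came from suckling Wistar rats (Wistar Han in the study's methods) that stayed with their mothers. From day 14 to day 21 of life the pups received by oral gavage, 2 times a day, either obestatin at 250 nmol per kg of body weight (OH) or saline (C). Obestatin is a peptide cut from the same precursor as ghrelin. Stomach and the middle of the intestine were sampled on day 21, so that each of the 4 combinations of tissue and treatment was measured on 4 arrays, 16 arrays in all; a lower dose of obestatin was not analysed here. Each two-colour array set the Cy5-labelled RNA of 1 tissue sample against a Cy3-labelled common reference, a pool of RNA of all the animals, and dyes were not swapped. Values below are log2 ratios of tissue to reference, so 0 means the level of the pool. They compare arrays for 1 probe and do not rank one gene against another. The litter of each pup was not given in the labels, nor whether a stomach and an intestine with the same number came from 1 rat, and p-values measure the spread between these samples only. In bulk tissue, fewer cells of a type and less RNA per cell cannot be told apart.

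Each group filled a slide of its own. The file headers gave 1 scan day for both OH slides and another for both C slides. Slide, scan day and treatment therefore cannot be told apart, and the same holds for slide and tissue. Median raw signals were 163 to 328 in Cy5 and 188 to 399 in Cy3, and 69.4% to 77.6% of spots stood well above background in Cy5. The raw Cy3 medians, of the common reference, split by treatment and scan day: 188 to 195 on the C arrays and 341 to 399 on the OH arrays. The labelled tissues carried their markers. All 10 measured genes of gastric gland and surface mucosa were higher in C stomach than in C middle intestine, and 11 of 12 enterocyte genes were lower. The stomach samples also held keratinised forestomach, with 9 of 9 measured markers higher in C stomach. Marker genes that moved with a member within a group are given beside that member.

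Early in development, opposing domains of transcription factors divide the gut tube along its length. Sox2 marks the endoderm of the foregut, including the oesophagus and stomach, while Cdx2 and Cdx1 mark the endoderm of the intestine and switch on genes of the enterocyte brush border. Loss of Cdx2 turns intestinal epithelium towards a foregut character. Barx1 acts from the mesenchyme of the stomach, where it raises secreted Wnt antagonists. The zinc finger factors Gata4, Gata5 and Gata6 and the nuclear receptor Hnf4a work in epithelium of both organs to differing degrees, and Pdx1 marks the antrum, the duodenum and the pancreas.

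The regulatory sequence in front of Cdx2, Sox2 and the first of the annotated starts of Hnf4a, members whose tissue differences passed with non-overlapping arrays, is shown from the RefSeq promoters of build GRCr8. Each stretch lies on the plus strand, 5′ to 3′, from 250 bases before to 30 bases after the annotated start, and capitals mark matches on either strand to 2 short words: TTTAT, read as ATAAA on the other strand and part of the site bound by Cdx factors, and AGATAA, read as TTATCT and bound by Gata factors.
Cdx2, chr12:12762654-12762933: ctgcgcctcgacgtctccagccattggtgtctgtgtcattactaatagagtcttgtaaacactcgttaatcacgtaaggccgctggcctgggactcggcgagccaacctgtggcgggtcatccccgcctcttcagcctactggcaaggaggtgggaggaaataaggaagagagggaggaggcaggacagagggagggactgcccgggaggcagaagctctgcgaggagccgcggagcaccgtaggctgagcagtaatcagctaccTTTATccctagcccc
Sox2, chr2:119464881-119465160: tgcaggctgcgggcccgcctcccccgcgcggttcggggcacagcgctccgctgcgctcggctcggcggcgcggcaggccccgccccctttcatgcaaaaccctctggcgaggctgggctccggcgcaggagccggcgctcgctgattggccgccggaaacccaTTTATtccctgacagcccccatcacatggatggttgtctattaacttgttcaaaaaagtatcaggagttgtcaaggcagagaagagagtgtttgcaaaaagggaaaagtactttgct
Hnf4a, first start, chr3:172605970-172606249: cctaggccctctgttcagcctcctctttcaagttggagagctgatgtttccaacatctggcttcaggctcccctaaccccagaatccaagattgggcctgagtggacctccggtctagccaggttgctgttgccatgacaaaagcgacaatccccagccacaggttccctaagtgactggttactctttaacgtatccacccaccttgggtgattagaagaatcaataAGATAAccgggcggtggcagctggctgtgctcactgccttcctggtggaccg

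The Cdx2 stretch held 1 TTTAT and the Sox2 stretch likewise 1, and neither held AGATAA. The Hnf4a stretch held 1 AGATAA and no TTTAT. The stretch at the second annotated start of Hnf4a, not printed, held neither word. Barx1 and Gata4, whose tissue differences also passed with non-overlapping arrays, had no promoter in the set used. Such short words are common: among 33469 RefSeq promoters of this length, 41.3% held TTTAT and 11.1% held AGATAA on either strand. A match describes letters and is not evidence of binding.

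**Figure D1:**
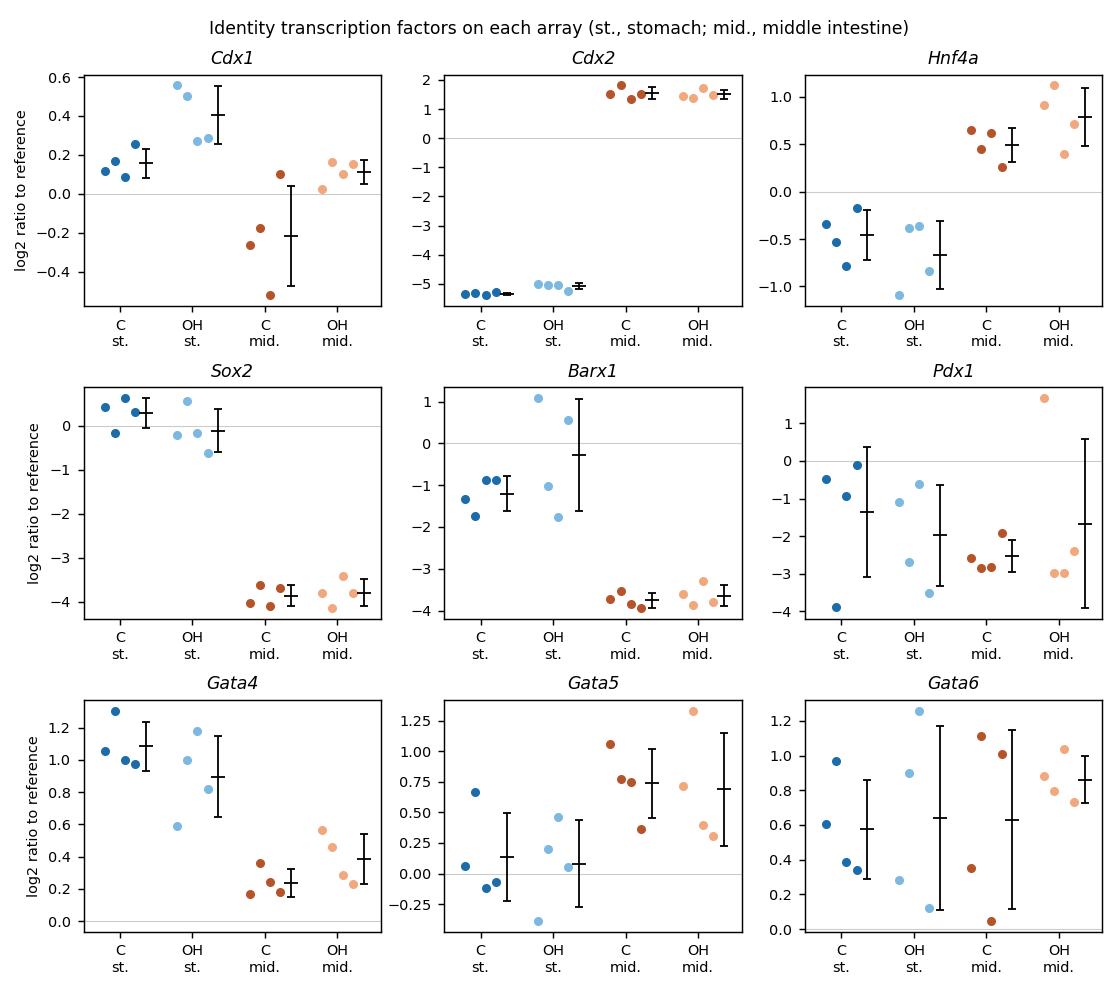
Log2 ratio of tissue to common reference (vertical axis) for the 9 genes, with 1 point per array, 4 arrays in each of the 4 groups, and the group mean with its SD beside them; each gene is shown by its brightest probe. Cdx2 and Sox2 sit in separate bands in the 2 tissues, whereas the arrays of Gata6 and Pdx1 mix.

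Which members are higher in which tissue was asked first in the saline-treated pups and then in the obestatin-treated pups, whose arrays are different ones. Of the 9 genes, 4 were higher in C stomach than in C middle intestine (Sox2, Barx1, Gata4 and Cdx1), 2 were lower (Cdx2 and Hnf4a) and 3 did not pass the test (Gata5, Gata6 and Pdx1). In the OH pups 3 were higher in stomach (Sox2, Barx1 and Gata4), 2 were lower (Cdx2 and Hnf4a) and 4 did not pass (Cdx1, Gata5, Gata6 and Pdx1). The test was limma over all probes kept, with a Benjamini-Hochberg adjusted p under 0.05. Tissue differences were common on the array: 44.9% of probes passed in the C pups (22.7% higher and 22.3% lower in stomach) and 38.2% in the OH pups (19.2% higher and 19.1% lower). Against these shares nothing is read from how many of 9 genes passed, and the sizes are described gene by gene. The median difference of the 9 genes, stomach minus intestine on the log2 scale, was 0.37 in the C pups and -0.22 in the OH pups, beside medians of -0.01 and 0.01 over all probes kept.

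**Figure D2:**
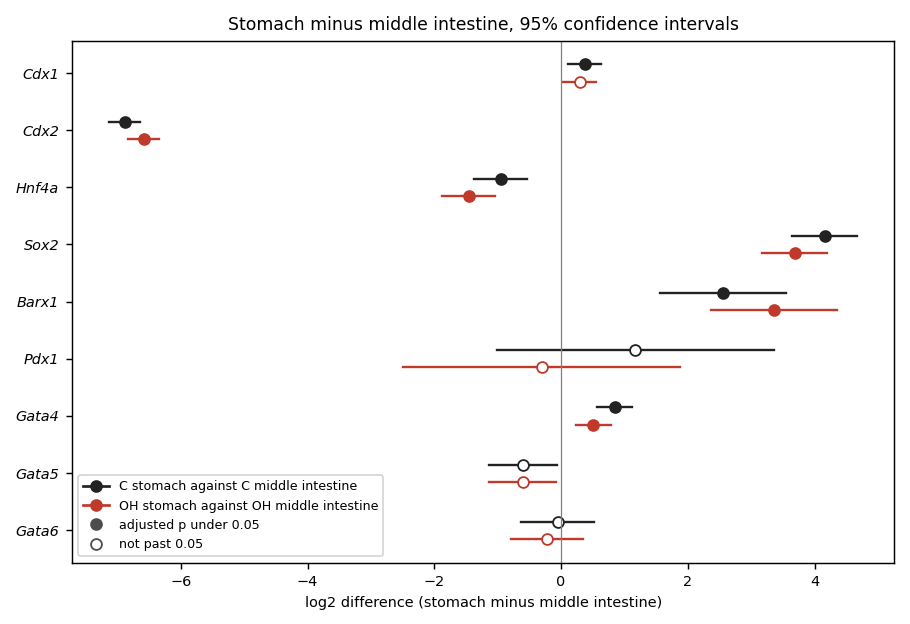
Log2 difference of stomach minus middle intestine (horizontal axis) with its 95% confidence interval for each of the 9 genes, in the C and in the OH pups, filled for a limma adjusted p under 0.05; values left of 0 are lower in stomach. Cdx2 lies far to the left at -6.89 and -6.59, and Sox2 and Barx1 lie to the right.

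Cdx2, the master factor of intestinal epithelium, was measured by a probe at chr12:8303557-8303616 (build rn4, as for all probe positions here). Its log2 ratios were -5.36, -5.32, -5.39 and -5.29 in C stomach and 1.52, 1.82, 1.34 and 1.51 in C middle intestine. The OH pups gave -5.00, -5.05, -5.04 and -5.24 in stomach and 1.43, 1.38, 1.72 and 1.48 in middle intestine. Every stomach array lay below every intestinal array, by a gap far wider than the spread within any group. The difference was -6.89 (SE 0.11, 95% CI -7.13 to -6.65), or 119-fold lower in C stomach, with n = 4 a group and a limma adjusted p of 1.47e-14. Among the OH pups it was -6.59, or 96.3-fold, with a limma adjusted p of 2.79e-14. When ratios were also scaled between arrays, the values were -8.67 and -6.24 (limma adjusted p = 0.00113 and 0.0101). Cdx2 was still well above background on every stomach array, with a mean processed Cy5 signal of 151 in C stomach and 225 in OH stomach. In order of level, the middle intestine groups came first (1.55 ± 0.20 in C and 1.5 ± 0.15 in OH, SD, n = 4) with overlapping arrays, then OH stomach (-5.08 ± 0.11) and C stomach (-5.34 ± 0.05).

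Cdx1, the close relative of Cdx2 that is expressed in intestinal crypts, did not show such a pattern by its only probe. Its log2 ratios were 0.12, 0.17, 0.09 and 0.25 in C stomach and -0.26, -0.18, -0.52 and 0.10 in C middle intestine. With obestatin they were 0.56, 0.50, 0.27 and 0.29 in stomach and 0.03, 0.16, 0.10 and 0.15 in middle intestine. All 16 values lay within 1.08 of each other, and the C tissues overlapped at 1 intestinal array while the OH tissues did not overlap. The ratio was higher in C stomach by 0.37 (SE 0.12, limma adjusted p = 0.0226) and differed by 0.29 in the OH pups (limma adjusted p = 0.0709). In the C pups the tissue channel itself differed by 0.04 and the reference channel by -0.33. The medians of these channels over all probes were -0.17 and -0.15. Beside them Cdx1 stood higher in the tissue channel and lower in the reference channel, so the called difference lay in both. The call was lost with the tissue channel alone, where the difference was 0.17 and the limma adjusted p was 0.408, and without C stomach replicate 4 (0.34, adjusted p = 0.0621), C middle intestine replicate 1 (0.35, adjusted p = 0.0516) or C middle intestine replicate 3 (0.27, adjusted p = 0.0669).

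The sequence of that probe is printed because it holds a repeated triplet. It matches chr18:56983411-56983470 on the minus strand, and its longest unbroken run of the triplet CAG is in capitals.
Cdx1 probe: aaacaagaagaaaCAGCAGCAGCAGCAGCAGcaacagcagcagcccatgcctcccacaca
The run holds 6 CAG triplets. Of all probes on the array, 7 (0.0231%) held a run of at least 6 CAG triplets. All 7 were kept, their differences between C stomach and C middle intestine ranged from 0.10 to 0.37 with a median of 0.13, and 1 of them, the Cdx1 probe, passed the test. Whether the probe also binds other transcripts was not tested.

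Sox2, the HMG box factor of foregut epithelium and its progenitor cells, had the opposite pattern to Cdx2. By its brighter probe (chr2:120970327-120970386) the log2 ratios were 0.42, -0.17, 0.62 and 0.31 in C stomach and -4.03, -3.63, -4.11 and -3.69 in C middle intestine. The OH arrays read -0.21, 0.56, -0.16 and -0.62 in stomach and -3.80, -4.15, -3.42 and -3.80 in middle intestine. All 8 stomach arrays lay above all 8 intestinal arrays. The difference was 4.16 (SE 0.24), or 17.9-fold higher in C stomach (limma adjusted p = 5.3e-09), and 3.68, or 12.9-fold, in the OH pups (limma adjusted p = 2.02e-08). The dimmer probe (chr2:120969725-120969784) gave 3.41 and 3.35 for the same comparisons.

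The forestomach markers moved with Sox2 in C stomach and less plainly in OH stomach. The mean log2 ratio of the 9 measured markers was 1.17, 0.18, 2.01 and 1.53 in C stomach replicates 1 to 4 and 0.14, 1.17, 0.17 and 0.42 in OH stomach. The highest and the lowest Sox2 array of C stomach were the highest and the lowest for these markers, and the highest Sox2 array of OH stomach was also the highest, but its lowest Sox2 array, replicate 4, was the second highest for the markers. Their summed Cy5 signal was 22334 to 71133 in C stomach, 24504 to 61855 in OH stomach and 1720 to 3326 in the intestine, and all 9 were well above background on every stomach array. Their part in the Sox2 level was not tested.

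Barx1, the homeobox factor of stomach mesenchyme, was measured at chr17:21993840-21993899 on the minus strand. Its log2 ratios were -1.33, -1.75, -0.86 and -0.88 in C stomach and -3.72, -3.54, -3.84 and -3.95 in C middle intestine. The OH pups gave 1.09, -1.02, -1.77 and 0.57 in stomach and -3.61, -3.87, -3.30 and -3.80 in middle intestine. No stomach array reached down to the intestinal ones, but the OH stomach arrays were split, with replicates 1 and 4 high and replicates 2 and 3 within or near the C range. Barx1 was 5.87-fold higher in C stomach (log2 difference 2.55, SE 0.47, limma adjusted p = 4.99e-04) and 10.3-fold higher in OH stomach (3.36, limma adjusted p = 5.08e-05).

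The secreted Wnt antagonists Sfrp1 and Sfrp2, which Barx1 is known to raise in stomach mesenchyme, went opposite ways between the tissues. Sfrp2 was higher in C stomach (log2 difference 4.33, limma adjusted p = 1.90e-04) and in OH stomach (4.57, limma adjusted p = 1.36e-04). No C middle intestine array had Sfrp2 well above background, so its level there is only bounded and no fold is given. Sfrp1 was lower in C stomach (-1.38, limma adjusted p = 0.00423) and did not pass in the OH pups (limma adjusted p = 0.0642).

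Smooth muscle genes moved with Barx1 and Sfrp2 among the stomach arrays. Sfrp2 was -1.10, -1.99, -0.70 and -0.35 in C stomach and 1.77, -1.57, -1.74 and 0.65 in OH stomach. The mean of the 8 smooth muscle markers was -2.20, -2.57, -1.38 and -2.0 in C stomach and 0.96, -1.32, -2.59 and 0.16 in OH stomach. All of them were highest on OH stomach replicates 1 and 4. So were the 7 measured markers of enteric glia and neurons, with means of 0.42 and 0.17 there and -0.045 or lower on every other stomach array. The summed Cy5 signal of the 8 markers ran from 53056 to 110533 in C stomach, 51699 to 483686 in OH stomach, 137448 to 283281 in C middle intestine and 132974 to 315194 in OH middle intestine, and all 8 were well above background on all 16 arrays. The part of muscle and nerve content in the Barx1 level was not tested.

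**Figure D3:**
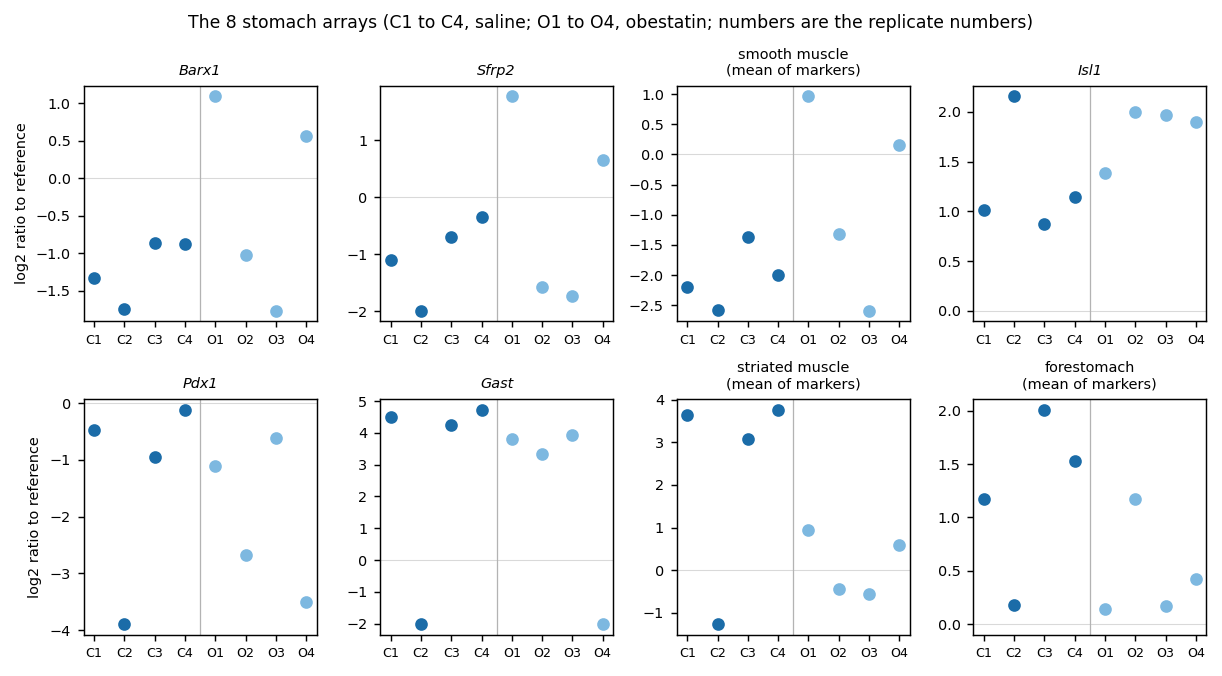
Log2 ratio of tissue to reference (vertical axis) on each of the 8 stomach arrays for Barx1, Pdx1, Sfrp2, Isl1 and Gast and for the means of the smooth muscle, striated muscle and forestomach markers (C1 to C4 saline, O1 to O4 obestatin). Barx1, Sfrp2 and the smooth muscle mean peak on OH stomach replicates 1 and 4, and Pdx1 and Gast both fall on C stomach replicate 2 and OH stomach replicate 4.

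Gata4, which is expressed in gastric epithelium and in the proximal more than the distal small intestine, was measured by 10 spots of a probe at chr15:42473004-42473063 on the minus strand. The log2 ratios were 1.05, 1.3, 1.00 and 0.98 in C stomach and 0.17, 0.36, 0.24 and 0.18 in C middle intestine. With obestatin they were 0.59, 1.00, 1.18 and 0.82 in stomach and 0.57, 0.46, 0.29 and 0.23 in middle intestine. Stomach and intestine did not overlap under either treatment, although in the OH pups the lowest stomach array (0.59) nearly touched the highest intestinal one (0.57). Gata4 was 1.80-fold higher in C stomach (log2 difference 0.85, limma adjusted p = 1.12e-04) and 1.42-fold higher in OH stomach (0.51, limma adjusted p = 0.00636). The call in the OH pups was lost when ratios were also scaled between arrays (0.36, limma adjusted p = 0.352).

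Gata5 and Gata6, the relatives of Gata4 in gut epithelium, did not pass in either tissue comparison. Gata5 (chr3:169385571-169385630, minus strand) was 0.06, 0.67, -0.12 and -0.07 in C stomach and 1.06, 0.78, 0.75 and 0.37 in C middle intestine. Its stomach minus intestine difference was -0.60 in the C pups (95% CI -1.13 to -0.07, limma adjusted p = 0.0622) and -0.61 in the OH pups (limma adjusted p = 0.0685), with overlapping arrays in both. Gata5 lay close to the threshold: it passed in both comparisons with the replicate number as a block (limma adjusted p = 0.0421 and 0.0463), and in the C pups it passed without C stomach replicate 2 (-0.78, limma adjusted p = 0.0220) and with array weights (-0.77, limma adjusted p = 0.00351).

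Gata6 (chr18:2534368-2534427) was 0.60, 0.97, 0.39 and 0.34 in C stomach and 0.35, 1.12, 0.05 and 1.01 in C middle intestine, and the arrays of all 4 groups mixed. The difference was -0.06 in the C pups (95% CI -0.63 to 0.52, limma adjusted p = 0.882) and -0.22 in the OH pups (95% CI -0.79 to 0.35, limma adjusted p = 0.550). These intervals include differences in either direction. The order of the group means of Gata6 therefore separates no neighbours beyond their spread.

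Hnf4a, the nuclear receptor that drives lipid transport genes in enterocytes and hepatocytes, was measured at chr3:154482715-154482774 by a dim probe. The log2 ratios were -0.34, -0.53, -0.78 and -0.18 in C stomach and 0.65, 0.45, 0.62 and 0.26 in C middle intestine. The OH arrays read -1.09, -0.39, -0.36 and -0.84 in stomach and 0.91, 1.13, 0.40 and 0.71 in middle intestine. All stomach arrays were below 0 and all intestinal arrays above 0. Hnf4a was 1.94-fold lower in C stomach (log2 difference -0.95, SE 0.20, limma adjusted p = 0.00125) and 2.75-fold lower in OH stomach (-1.46, limma adjusted p = 3.70e-05). The tissue channel itself differed by -1.61 in the C pups and -1.42 in the OH pups, and the reference channel by -0.66 and 0.03. The mean log2 reference signal was 6.21 in C middle intestine and 5.56 to 5.71 in the other groups, so the smaller ratio in the C pups came with a higher reference signal on the C middle intestine arrays. Over all settings the difference ran from -1.5 to -0.46 in the C pups and from -1.59 to -0.77 in the OH pups, and passed in each.

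Pdx1, the homeobox factor of antrum, duodenum and pancreas, varied more between arrays of 1 group than between tissues. The log2 ratios were -0.47, -3.89, -0.94 and -0.11 in C stomach and -1.10, -2.68, -0.62 and -3.50 in OH stomach. In the middle intestine they were -2.57, -2.84, -2.81 and -1.91 in C and 1.67, -2.99, -2.98 and -2.38 in OH. In stomach, C replicate 2 and OH replicates 2 and 4 were as low as the intestine, and a single intestinal array, OH replicate 1, was the highest of all 16. The tissue difference was 1.17 in the C pups (95% CI -1.01 to 3.36, limma adjusted p = 0.369) and -0.30 in the OH pups (limma adjusted p = 0.840). The SD of Pdx1 within a group was 0.43 to 2.25, beside 0.05 to 0.20 for Cdx2.

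The antral hormone gastrin (Gast) fell with Pdx1 on some but not all of the stomach arrays low in Pdx1. Gast was 4.51, -2.01, 4.26 and 4.73 in C stomach and 3.82, 3.34, 3.92 and -2.02 in OH stomach. On C replicate 2 and OH replicate 4, which held the lowest Pdx1 of their groups, Gast was well above background but no higher than in the intestine. On OH replicate 2, where Pdx1 was -2.68, Gast stayed high at 3.34. The mean of the 9 measured striated muscle markers followed the same order in C stomach (3.64, -1.27, 3.09 and 3.77) but not in OH stomach (0.95, -0.45, -0.56 and 0.60), and its summed Cy5 signal was 1142 to 130680 in C stomach, 1789 to 8608 in OH stomach and 1763 to 3287 in the intestine. The part of the sampled region in the Pdx1 level was not tested. Gast was higher in stomach in both comparisons (log2 difference 4.44, limma adjusted p = 0.0189, and 3.78, limma adjusted p = 0.0458), calls that were lost in 4 and in 19 of 31 other settings, and the duodenal hormone Gip was lower (-5.12, limma adjusted p = 5.93e-09 in the C pups). On OH middle intestine replicate 1, where Pdx1 was highest, Gip was 0.99 within a group range of -0.12 to 1.5. The mean of the 13 measured pancreas markers was -2.94 on that array and -3.14 to -1.73 on the other OH intestinal arrays, so these markers did not stand out there. Onecut2, a factor of the epithelial list picked out after its values were seen, did: it was 0.07 on that array and -2.31 to -1.69 on the other OH intestinal arrays. Between the tissues, 8 of the 13 pancreas markers were higher in C stomach (median of the 13 genes 2.20) and 5 did not pass. With obestatin 7 were higher in stomach (median 1.57) and 6 did not pass. Their part in the stomach Pdx1 level was not tested.

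Cdx2 and Pdx1 are neighbours among the protein-coding genes of chromosome 12 in the RefSeq order of GRCr8, and the genes on either side were looked up by position after the values of both were seen. Next to Cdx2 on the far side from Pdx1 is Urad, which encodes an enzyme of urate breakdown. Urad was lower in C stomach (log2 difference -2.78, SE 0.16, limma adjusted p = 4.92e-09) and in OH stomach (-2.80), the same direction as Cdx2. Flt3, the next gene, differed by -0.35 in the C pups (limma adjusted p = 0.0708) and was lower in OH stomach (-0.55, limma adjusted p = 0.0103). Pan3 beyond it differed by 0.08, and Lnx2, beyond Pdx1, was higher in stomach (0.93, limma adjusted p = 5.96e-05). Gsx1 and Polr1d, between Pdx1 and Lnx2, were not analysed here.

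Most genes known to be driven by the intestinal factors were lower in stomach. All 9 measured Cdx targets of 11 listed were lower in C stomach (median log2 difference -2.70) and in OH stomach (-3.53), beside medians of -0.01 and 0.01 over all probes. Cdh17, the liver-intestine cadherin, was lowest, at -8.03 in the C pups (limma adjusted p = 1.51e-10). The goblet cell mucin Muc2 was lower by a log2 difference of -4.62 (limma adjusted p = 6.92e-07), with no C stomach array well above background and therefore no fold. The brush border phosphatase Alpi differed by -4.29 (limma adjusted p = 5.37e-07). When ratios were also scaled between arrays, 6 of the 9 calls in the OH pups were left.

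Of 10 Hnf4a targets, 9 were lower in C stomach (median of the 10 genes -2.67) and 9 in OH stomach (-3.48), led in the C pups by Mttp, the loader of lipoprotein lipid (-5.05, limma adjusted p = 2.42e-11), the fatty acid binder Fabp1 (-4.58, limma adjusted p = 2.29e-07) and the apolipoprotein gene Apoc2 (-4.14, limma adjusted p = 4.19e-06). The exception was Ttr, at 0.14 in the C pups (limma adjusted p = 0.70) and 0.61 in the OH pups. In the OH pups 2 of these 9 calls were left when ratios were also scaled between arrays. The lists name genes of enterocytes, and the enterocyte markers themselves differed by a median of -2.58 in the C pups and -3.48 in the OH pups. Most of those markers are themselves listed targets, so their medians are not a separate measure. Lct, Alpi, Vil1, Cdh17 and Mep1a are shared with the Cdx list, and Fabp1, Fabp2, Apoa1 and Apoa4 with the Hnf4a list. The part of enterocyte content in these differences was not tested.

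Of the bile acid genes of the ileum, which Gata4 is known to hold down in the jejunum, 3 were high in the middle intestine. All 4 listed genes had a probe, but Slc10a2 was left out by the filter, so its level is not given. The 3 genes kept were lower in C stomach, with a median of -4.85. They were Slc51a (-5.85, limma adjusted p = 3.07e-07), Fabp6 (-4.85, limma adjusted p = 1.08e-07) and Slc51b (-3.56, limma adjusted p = 2.15e-07). In the OH pups the median was -5.40 and all 3 passed again. Fabp6, the ileal bile acid binding protein, was 2.78 to 4.57 in C middle intestine and -1.34 to -1.05 in C stomach. The intestinal samples thus carried these 3 ileal genes together with Gata4 a little above the level of the pool (0.24 ± 0.09 in C and 0.39 ± 0.15 in OH, SD, n = 4).

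**Figure D4:**
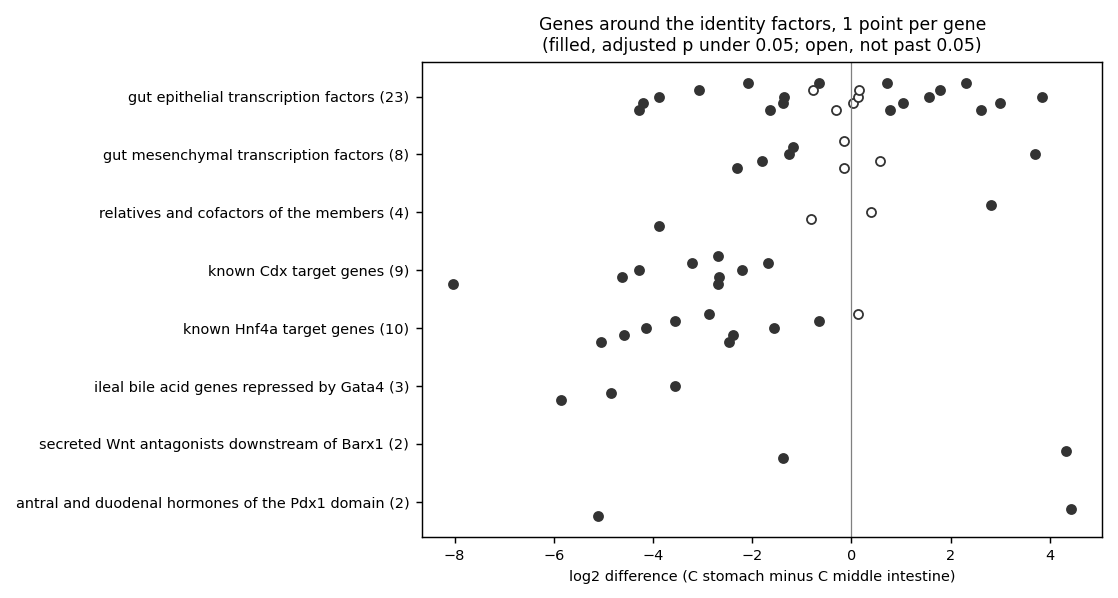
Log2 difference of stomach minus middle intestine (horizontal axis) for each measured gene of the lists of targets and other gut transcription factors, in the C pups, with 1 point per gene, filled for a limma adjusted p under 0.05. All Cdx targets lie left of 0, and the other transcription factors spread to both sides.

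Other transcription factors of gut epithelium divided between the tissues. Of 23 measured genes (30 listed), 9 were higher in C stomach, 9 were lower and 5 did not pass (among them Neurod1, Elf3, Neurog3 and Sox9), with a median of 0.04. In the OH pups 7 were higher, 11 were lower and 5 did not pass (among them Neurog3, Sox9, Nkx6-3 and Ehf), with a median of -0.52. The largest differences in the C pups were of intestinal factors: Nr5a2, a nuclear receptor (-4.28, limma adjusted p = 1.08e-09), Creb3l3, a membrane-bound factor of lipid metabolism (-4.20, limma adjusted p = 6.13e-11), and Hnf4g, the paralogue of Hnf4a (-3.88, limma adjusted p = 9.72e-08). The calls of Spdef and Ehf, both higher in C stomach, were lost in 16 and 17 of 31 other settings. Those of Nkx6-3 and Bhlha15, also higher there, were lost in 1 and 3. Foxa1, Foxa2, Foxa3, Klf4 and Foxq1 were higher in C stomach in all 31, with Foxq1 at 3.42 to 4.38. In the OH pups Hnf4g differed by -5.24 (limma adjusted p = 4.59e-09).

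Among 4 measured relatives and cofactors of the members (8 listed), Hnf4g was lower and Gata3 was higher in C stomach, and Gata2 (-0.82) and Zfpm1 (0.40) did not pass. Gata3, a zinc finger factor of squamous epithelium and of the pyloric region, was higher by 2.81 (limma adjusted p = 1.16e-04), with no C middle intestine array well above background and therefore no fold. Of 8 measured mesenchymal factors (10 listed), 1 was higher in C stomach, 4 were lower and 3 did not pass (Nkx3-2, Six2 and Meis1), with a median of -0.66. The smooth muscle markers differed by a median of -1.37 in the C pups and -0.18 in the OH pups, and their part in these differences was not tested. The factor that was higher was Isl1, a LIM homeobox factor of the pylorus (3.70, limma adjusted p = 7.23e-08), and Tcf21, a factor of visceral mesenchyme, was lower (-2.30, limma adjusted p = 0.00114). In the OH pups 2 were higher (Isl1 and Meis1), 3 were lower (among them Nkx2-3 and Tcf21, the latter of which lost its call in 8 of 31 other settings) and 3 did not pass (Foxf1, Nkx3-2 and Six2), with a median of -0.07. Isl1 did not follow Barx1 among the stomach arrays: it was highest on C stomach replicate 2 (2.15), where Barx1 was lowest of the C group, and 1.39 to 1.99 in OH stomach.

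Whether obestatin moved these factors was asked within each tissue. No member passed in stomach or in middle intestine. In stomach 1 member (Cdx2) had an unadjusted limma p under 0.05 and in middle intestine 1 (Cdx1). Of all 21174 probes kept, 2247 in stomach and 2213 in middle intestine had one as low, so nothing is read from 1 of 9 members. The smallest limma adjusted p of a member was 0.454 in stomach and 0.330 in middle intestine. An analysis of variance with Tukey's test likewise passed 0 members in each tissue. Over all probes 0% passed in stomach and 0.368% in middle intestine. The median difference of the 9 genes, OH minus C, was -0.05 in stomach and 0.15 in middle intestine, beside 0.01 and 0.00 over all probes.

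**Figure D5:**
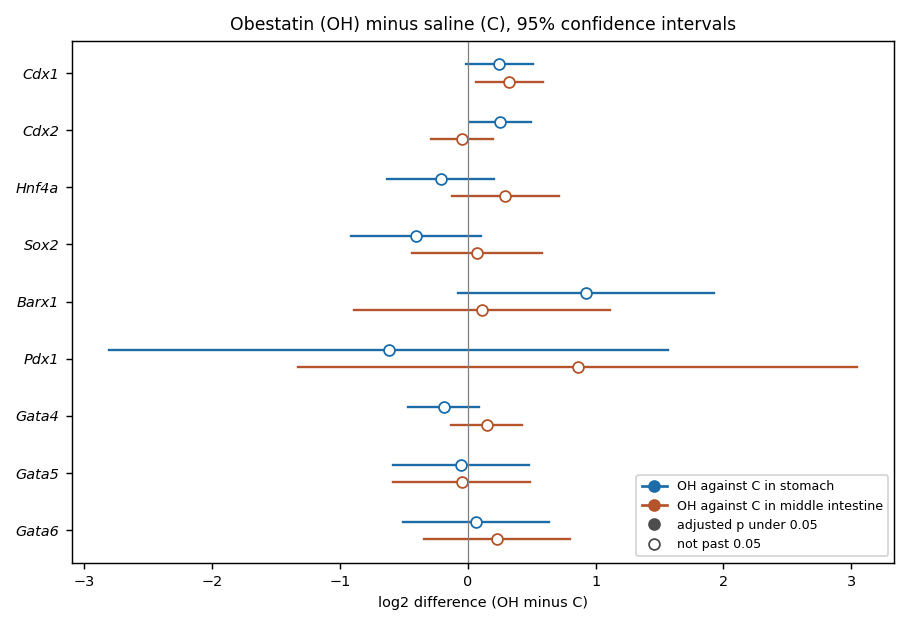
Log2 difference of OH minus C (horizontal axis) with its 95% confidence interval for each of the 9 genes in stomach and in middle intestine. In this fit the intervals are narrower for Cdx2 (-0.04 in middle intestine) than for Pdx1, and no gene passed the test.

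In stomach the OH arrays lay above the C arrays, without overlap, for 2 members, Cdx1 and Cdx2, beside 7.6% of all probes whose groups did not overlap. In middle intestine no member had groups apart, beside 5.86% of all probes. Cdx2 differed by 0.26 in stomach (95% CI 0.01 to 0.50, limma adjusted p = 0.454), a shift seen on 4 of 4 OH arrays at a level far below that of the intestine. Scaling the ratios between arrays moved it to 2.77 (limma adjusted p = 0.326). Its tissue channel differed by 0.57 and its reference channel by 0.31, while the medians over all probes were 0.32 and 0.33. In middle intestine, where Cdx2 is abundant, the difference was -0.04 (95% CI -0.29 to 0.20).

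Cdx1 differed by 0.25 in stomach (95% CI -0.01 to 0.51, limma adjusted p = 0.488) and by 0.33 in middle intestine (95% CI 0.07 to 0.59, limma adjusted p = 0.330). In middle intestine the tissue channel differed by 0.10 and the reference channel by -0.22, beside medians of 0.09 and 0.08 over all probes. Sox2 differed by -0.41 in stomach (limma adjusted p = 0.569) by its brighter probe and -0.38 by its dimmer one. Barx1 differed by 0.92 in stomach (95% CI -0.07 to 1.92, limma adjusted p = 0.508), carried by OH replicates 1 and 4. The 8 smooth muscle markers differed there by a median of 1.42, and 0 of 8 passed, with a smallest limma adjusted p of 0.344.

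Gata4 differed by -0.19 in stomach (limma adjusted p = 0.636) and 0.15 in middle intestine (limma adjusted p = 0.777), and its arrays overlapped in both. Hnf4a differed by -0.21 and 0.29, and in middle intestine its reference channel differed by -0.54. Gata5 differed by -0.05 in each tissue, and Gata6 by 0.07 and 0.23. For Pdx1 the intervals were too wide to read a direction, from -2.80 to 1.57 in stomach and from -1.32 to 3.05 in middle intestine. Whether the response differed between the tissues was tested as well, and no member passed, with a smallest limma adjusted p of 0.838, beside 0% of all probes. In all lists of targets and of other transcription factors, 0 genes passed for OH against C in either tissue.

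For each member the 3 named genes with the most similar profile were found by the root mean square difference over the 16 arrays after each profile was centred on its own mean, among 13202 candidate genes. Since the tissues dominate these profiles, likeness largely means a like tissue difference. Nearest to Cdx2 were Vipr1 (0.220), Cga (0.301) and Aldh1b1 (0.312), where the median candidate lay at 3.38. Their own C tissue differences were -6.50, -7.18 and -6.82, beside -6.89 for Cdx2. Nearest to Sox2 were Serpinb10 (0.212), Fat2 (0.256) and Nkpd1 (0.257), with a median candidate at 2.02 and tissue differences of 4.42, 4.28 and 4.38.

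The nearest genes to Barx1 were Cpa6 (0.336), Nr2f1 (0.556) and Col4a6 (0.563), with a median candidate at 1.67. No gene came near Pdx1 in the same way: its nearest were Pkib (0.698), Trpv6 (0.910) and Il1a (0.988), beside a median of 1.51. For Hnf4a they were Mfsd9 (0.192), Tprn (0.209) and Perld1 (0.209), with a median of 0.758. For the members with flat profiles a small distance says little: the nearest to Cdx1 was Ddx6 (0.0985), to Gata4 Coa5 (0.114), to Gata5 Prodh (0.168) and to Gata6 Pik3r1 (0.199), with medians of 0.472, 0.538, 0.577 and 0.522.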

How the data were processed

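RNA of 16 tissue samples was measured, each on 1 two-colour Agilent rat array (4 groups of 4). Per the labels and the file headers, the authors labelled tissue RNA with Cy5 and the common reference with Cy3, scanned the arrays, and used Agilent Feature Extraction (version 10.7.3.1 in the labels, 10.10.1.1 in the file headers) to subtract background and apply Lowess dye normalisation. The deposited intensity values are raw and processed signals per spot, and the deposited log10 ratio is that of processed Cy5 over processed Cy3. The authors' table of log10 values for the series held the same ratios (rounded on 1 array) and served as an alternative only. The genome build of the probe positions is rn4.

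Log2 ratios were computed from the processed signals, spots marked as outliers and control spots were left out, and spots of 1 probe were averaged. To be kept, a probe had to be marked as well above its background in the tissue channel throughout 1 group (4 arrays) or more, with at least 3 values per group, which left 21174 of 30367 probes; 9193 were left out, and 0 spots were saturated. The array number limits the precision. Groups came from the sample labels, and were compared with limma 3.58.1 in R 4.3.3 (lmFit and eBayes, 1 mean per group, 16 arrays, Benjamini-Hochberg over all probes kept, adjusted p under 0.05). The same steps were tested on simulated data. A gene was represented by its brightest probe, and a listed gene is called measured where that probe was kept.

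Named were the 9 members, the 3 most similar genes of each, from each list up to 3 genes with the largest C tissue difference among those that passed, and genes counted in groups of 5 or fewer. Some genes that this rule names are not reported here. The members and lists were chosen with earlier results of these data known. Alternatives were the dye normalisation and background correction, the table of the series, filters, the tissue channel alone, scaling between arrays, array weights, analysis of variance with Tukey's test as in the methods, a replicate block and leaving out each array.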

Additional observations from a re-analysis of the deposited data

Results flagged for a closer look

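Single arrays that stood apart from the other 3 of their group were looked for in every group of 4, by the gap to the nearest array as a share of the whole range. Among the members, 1 of 36 groups passed (2.78%), and among the lists 4 of 64 (6.25%), where chance marks about 1 in 20 groups.

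For Pdx1 the array apart was that of replicate 1 in OH middle intestine (log2 ratio 1.67), beside -2.99 to -2.38 on the other 3 arrays.

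The mean of the antral and duodenal hormones Gast and Gip stood apart in both stomach groups. It was -3.08 on C stomach replicate 2, beside -0.08 to 0.15 on the others, and -3.41 on OH stomach replicate 4, beside -0.60 to -0.04. These are the arrays with the lowest Pdx1 of their groups. The gap lay mainly in Gast, which was -2.01 and -2.02 on these arrays and 3.34 or higher on every other stomach array. Gip was -4.14 on C stomach replicate 2, beside -4.48, -4.41 and -4.20 on the other C stomach arrays. On OH stomach replicate 4 Gip was -4.81, beside -4.54, -4.38 and -4.00 on the rest of that group.

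The striated muscle markers had a mean of -1.27 on C stomach replicate 2, beside 3.09 to 3.77 on the others. Without that array 7 members passed in the C tissue comparison, Gata5 being added. The markers of enteric glia and neurons had a mean of -0.045 on C stomach replicate 4, beside -0.45 to -0.39.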

How the results depend on the processing

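No called difference of a member reversed under any of the alternatives run. In the C tissue comparison 5 to 7 members passed over 15 alternatives (6 in the reported fit) and 5 to 7 when single arrays were left out, in the OH tissue comparison 5 to 6 and 5 to 6 (5 reported), and for OH against C in either tissue, and for the difference between the tissues, 0 in all. The members that crossed the threshold were Cdx1, Gata4 and Gata5, and the cause was not tested. Cdx1 also lost its call in the C pups with only the groups compared in the fit (limma adjusted p = 0.0623), and passed in the OH pups with array weights (0.0486) or without C middle intestine replicate 3 (0.0382) or 4 (0.0381). Gata5 passed in the C pups with normexp background correction (-0.54, limma adjusted p = 0.0366), with scaled ratios (-0.61, 0.0331), with only the groups compared in the fit (0.0461) and without C middle intestine replicate 4 (-0.72, 0.0407) or OH middle intestine replicate 2 (0.0353), and in the OH pups with normexp (0.0237), scaled ratios (0.0313) and without OH stomach replicate 3 (0.0425) or OH middle intestine replicate 4 (0.0451). Differences that changed sign without passing in either fit numbered 6, 3, 12, 19 and 13 of 279, 279, 270, 270 and 261 values in these comparisons. Over all probes, OH against C passed 0 in stomach in the reported fit and up to 1138 (array weights), and 78 in middle intestine, with 1 to 1378 over the alternatives. The Gast call was lost in 4 settings in the C pups and in 19 of 31 in the OH pups.

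Replicate numbers are shared between the groups, but the labels do not say whether they pair samples. The correlations of same-numbered arrays were 0.06 to 0.25 between the C tissues, -0.12 to 0.32 between the OH tissues and -0.40 to 0.51 between treatments. Not all were above 0.1, and the reported fit did not pair samples. Correlations of so few arrays cannot decide whether the numbers mark pairs. With the replicate number as a block, 7 members passed in the C tissue comparison and 6 in the OH one, Gata5 being added in each (limma adjusted p = 0.0421 and 0.0463), and 0 passed in the other 3 comparisons. A dim probe (Hnf4a), 4 arrays a group and unswapped dyes limit the precision.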
